A study of Mus musculus with 4 samples.

Results

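The smooth muscle contractile genes described here are 10 genes fixed by name, the actins Acta2 and Actg2, the myosin heavy chain Myh11, the regulatory light chain Myl9, the kinase Mylk, and the actin-binding or filament genes Tagln, Cnn1, Lmod1, Des and Tpm1. Each was found as a locus of its own gene name among 25572 loci of a liver expression table. The study sequenced total RNA from the livers of 4 mice of strain C57BL/6J, all 8 weeks old. Of these, 2 were wild type (WT), labelled as controls for the knockout, and 2 were labelled Ern1-LKO, a knockout of Ern1 specific to the liver. The sources used here do not name the Cre driver of the knockout. Expression is given as FPKM, fragments normalised to transcript length and to the mapped total, with 1 value per genotype made by the authors. The spread between the 2 mice of a genotype is therefore not shown, and either mouse could carry a difference.

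Smooth muscle shortens when myosin, made of heavy chains and light chains, pulls on actin filaments. Myosin light chain kinase, encoded by Mylk, starts the cycle by phosphorylating the regulatory light chain, and calponin, transgelin, tropomyosin and leiomodin bind or shape the actin filaments. In liver these proteins belong to the muscle layer of arteries and portal veins, to cells around vessels and bile ducts, and to myofibroblasts, the contractile matrix-producing cells that stellate cells and portal fibroblasts can become. Hepatocytes, the bulk of the tissue, use the non-muscle members of the same families. From textbook knowledge of where each gene is expressed, Acta2, Actg2, Myh11, Tagln, Cnn1, Lmod1 and Des were taken as muscle-restricted (7 genes), and Myl9, Mylk and Tpm1 as broadly expressed (3 genes).

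Many smooth muscle genes carry CArG boxes, the sites bound by serum response factor (SRF), close to their start. RefSeq sequences on build GRCm38.p6 were matched for 7 of the 10 genes, namely Acta2, Cnn1, Lmod1, Des, Myl9, Mylk and Tpm1. The 250 bases before each start were searched for the 10-base CArG box, whose pattern reads the same on both strands, allowing at most 1 G or C in its 6 middle bases. Acta2 and Myl9 held 2 boxes each and the other 5 held none. The search covered 1 RefSeq start per gene. That of Mylk, at 34784950, lies inside its GENCODE gene, which starts at 34745210, so the bases before the GENCODE start were not searched. The GENCODE gene of Acta2, on the minus strand, reaches 34255590, beyond the RefSeq start at 34255373, so both Acta2 boxes lie inside it. Every box found is shown, in capitals with 10 bases on each side. Acta2 and Myl9 rose in the Ern1-LKO libraries; Actg2 and Myh11, which also rose, were not searched.
Acta2, chr19:34255438-34255467, minus strand: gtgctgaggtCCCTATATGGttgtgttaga
Acta2, chr19:34255388-34255417, minus strand: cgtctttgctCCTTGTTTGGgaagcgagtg
Myl9, chr2:156775293-156775322, plus strand: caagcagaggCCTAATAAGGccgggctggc
Myl9, chr2:156775355-156775384, plus strand: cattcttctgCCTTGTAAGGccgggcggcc
The boxes are centred 79 and 29 bases before the RefSeq start of Acta2, and 156 and 94 bases before that of Myl9. Only the first Myl9 box has none but A and T in its middle; over all 32851 promoters, 1.47% held such a box and 8.59% held one with up to 1 G or C. A match describes the letters and does not show binding.

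Transcripts of Acta2, Actg2, Myh11 and Myl9 rose in the Ern1-LKO libraries. A gene is counted as changed where the q-value of the authors' deposited table lies under 0.05, which held at 2.74% of 13320 tested loci, 1.58% being higher and 1.16% lower in Ern1-LKO. All 10 genes were tested; 4 rose and none fell. All 10 also lay above WT, as did 47.9% of tested loci, and 7 of the 10 were at least 2-fold higher, as were 2.79% of tested loci. The median log2 fold change was 2.28 over the muscle-restricted genes, 0.32 over the broad genes and -0.01 over all tested loci. The share of loci that rose was 1.84% at a mean FPKM under 1, 1.64% from 1 to under 10, 1.33% from 10 to under 100 and 1.52% above that. The cells of origin cannot be read from whole liver, since more cells of a type and more RNA per cell cannot be told apart.

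**Figure D1:**
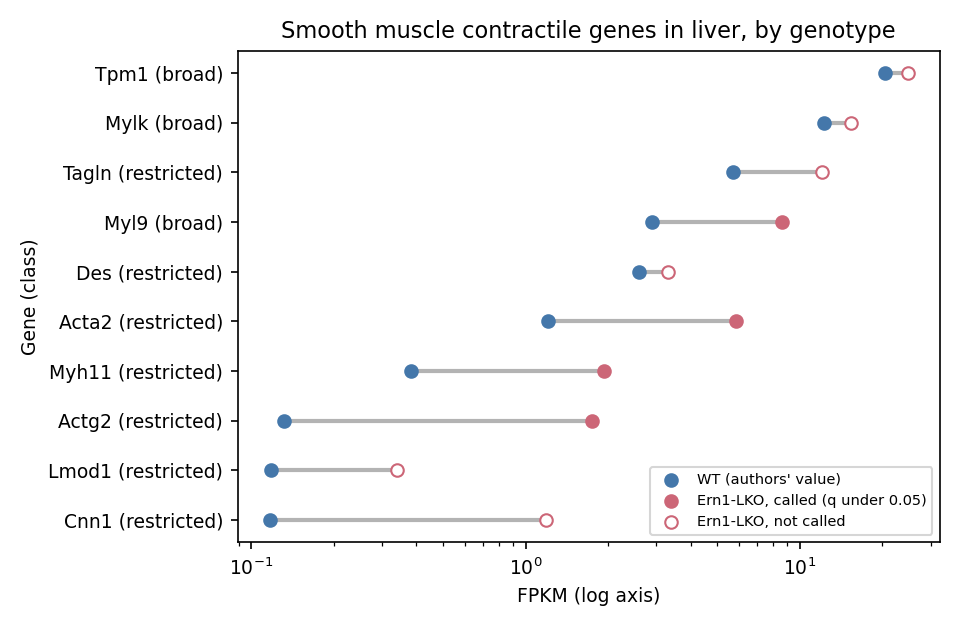
FPKM (log axis) of each gene in WT (blue) and Ern1-LKO (red, filled where q lies under 0.05), 1 authors' value per genotype, ordered by the WT level. The connecting lines are long for the low muscle-restricted genes such as Actg2 (0.13 to 1.74) and short for Tpm1 (20.4 to 24.8) and Mylk (12.3 to 15.4).

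Acta2 encodes the α-actin of vascular smooth muscle and myofibroblasts. Its FPKM was 1.21 in WT and 5.86 in Ern1-LKO, a ratio of 4.85. In the authors' deposited table its log2 fold change is 2.28 with q = 0.00343, and the standard error (SE) implied by its test statistic is 0.23. Actg2 encodes the γ-actin typical of gut and other visceral smooth muscle. Its FPKM was 0.13 in WT and 1.74 in Ern1-LKO, a ratio of 13.2, the highest of the 10 genes. Its log2 fold change in the authors' deposited table is 3.72, at p = 0.0009 and q = 0.0364. The statistic of Actg2 implies an SE of 0.62, whereas its p-value corresponds to a wider SE of 1.12, so the size of its rise is known less well than the first SE says. Both actins were near or under 1 FPKM in WT, far below the cytoskeletal actin Actb at 444 FPKM in WT and 403 in Ern1-LKO. Per length, Acta2 came to 0.272% of the Actb level in WT and 1.45% in Ern1-LKO.

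The myosin genes include a heavy chain restricted to smooth muscle and a light chain that is more widely used. Myh11, the smooth muscle myosin heavy chain, marks differentiated smooth muscle cells. It rose from 0.38 to 1.93 FPKM, a ratio of 5.06. On the log2 scale the rise is 2.34 (implied SE 0.23), at q = 0.00343 in the authors' deposited table. Its rise on the log2 scale differed from that of Acta2 by less than the SE of either. Myl9, the regulatory light chain of smooth muscle and of many non-muscle cells, rose from 2.90 to 8.63 FPKM, a ratio of 2.98. Its log2 fold change of 1.57 (implied SE 0.24) carries q = 0.00343 in the authors' deposited table, the smallest q there. Myl9 was thus the only called gene of the broad class, and it stood with the muscle-restricted genes in size. Mylk, the kinase that phosphorylates that light chain, was at 12.3 FPKM in WT and 15.4 in Ern1-LKO, and its log2 fold change of 0.32 (implied SE 0.16) had q = 0.491 in the authors' deposited table. The gene-level value of Mylk pools its long and short kinase isoforms and telokin, and the table's locus starts at 34784950 on chromosome 16, downstream of the GENCODE gene start at 34745210.

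The actin-binding genes Tagln and Cnn1 had large ratios and no call. Tagln, which encodes transgelin (SM22α), was at 5.69 FPKM in WT and 12.1 in Ern1-LKO, a ratio of 2.13. Its log2 fold change of 1.09 had q = 0.567 in the authors' deposited table, with an implied SE of 0.57. Cnn1, the smooth muscle calponin, was at 0.12 and 1.19 FPKM, a ratio of 10.2. Its log2 fold change of 3.35 had q = 0.972 in the authors' deposited table, with an implied SE of 4.05 that leaves its size undetermined. Only Actg2 had a higher ratio among the 10 genes.

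The loci of 4 of the 10 genes, Tagln, Cnn1, Mylk and Des, are merged in the table into a span that neighbours share, and none of the 4 was called. The span assigned to Cnn1 is 334 kb and is shared by 14 loci, among them Acp5 at 83.9 FPKM in WT, and that of Tagln is 97.5 kb and is shared by 4. The Mylk span of 217 kb is shared by 3 loci and the Des span of 14.7 kb by 2, and their implied SEs were low (0.16 and 0.21). None of the 8 other tested loci in the Cnn1 span and none of the 3 in the Tagln span differed 2-fold or more, with log2 fold changes from -0.32 to 0.37 and from -0.19 to 0.05. Across the table, loci that share a span had wider SEs. At a mean FPKM of 0.5 to 2 the median implied SE was 0.28 for 2244 loci with a span of their own, 0.45 for 624 loci that share one and 0.85 for 49 loci in spans of 5 or more. An SE above 1 was found at 0.609% of loci with their own span and at 8.33% of the others. Calls were made at 3.25% of 10196 loci with their own span and at 1.09% of 3124 that share one. Among loci at least 2-fold higher in Ern1-LKO and at 1 FPKM or more there, 81 of 137 with their own span were called and 4 of 19 that share one. The part of the merged spans in the missing calls of Tagln and Cnn1 was not tested.

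**Figure D2:**
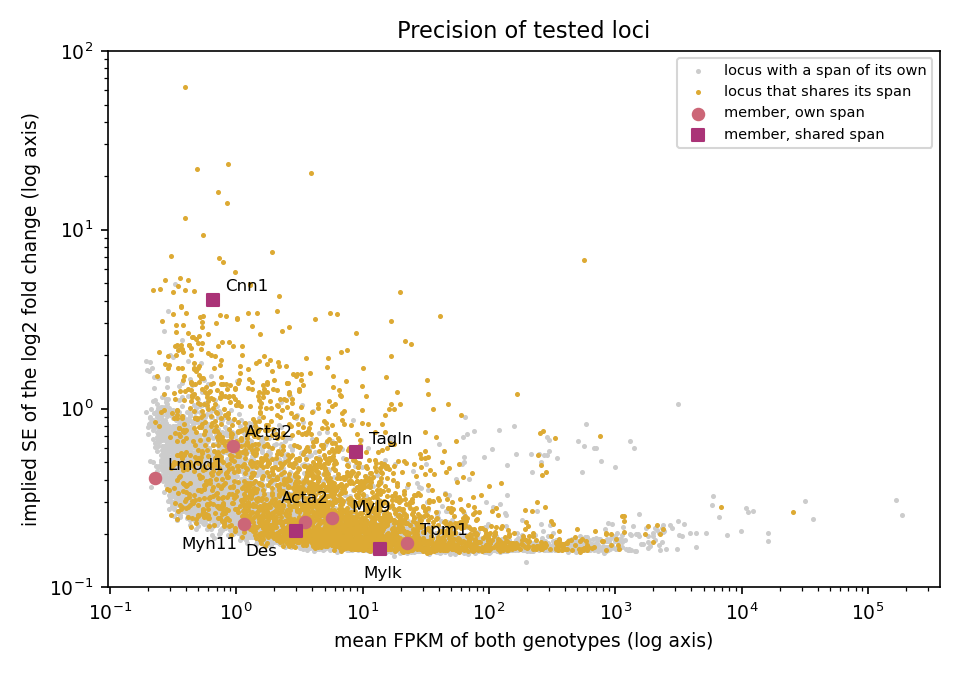
Implied SE of the log2 fold change against the mean FPKM of both genotypes (log axes) for tested loci, those with a span of their own in grey and those that share a span in yellow. Cnn1 (SE 4.05) and Tagln (SE 0.57) stand above the grey cloud at their level, while Acta2 (0.23), Myh11 (0.23) and Myl9 (0.24) lie within it. Actg2, also called, has an SE of 0.62. The 95th percentile was 0.63 for loci with a span of their own at a mean FPKM of 0.5 to 2.

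Lmod1 encodes leiomodin, which seeds new actin filaments in smooth muscle. Its FPKM was 0.12 in WT and 0.34 in Ern1-LKO, the lowest Ern1-LKO level of the 10 genes and a ratio of 2.87. Its log2 fold change of 1.52 (implied SE 0.41) reached p = 0.0019 in the authors' deposited table and its q of 0.0613 lay just outside the threshold. Des encodes desmin, the intermediate filament of muscle that rodent stellate cells also make. It was at 2.59 FPKM in WT and 3.30 in Ern1-LKO, and its log2 fold change of 0.35 (implied SE 0.21) had q = 0.648 in the authors' deposited table. Tpm1, a tropomyosin gene with muscle and non-muscle isoforms that the table does not separate, was at 20.4 and 24.8 FPKM. Its log2 fold change of 0.28 (implied SE 0.18) had q = 0.706 in the authors' deposited table. Des was therefore the muscle-restricted gene whose ratio, 1.27, lay closest to those of Mylk (1.25) and Tpm1 (1.21).

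The order of levels in WT ran Tpm1, Mylk, Tagln, Myl9, Des, Acta2, Myh11, Actg2, Lmod1, Cnn1, and in Ern1-LKO Acta2 stood above Des and Cnn1 above Lmod1. Fold and absolute difference ordered the genes differently. The difference in FPKM was 4.37 for Tpm1 and 3.10 for Mylk, near the 4.65 of Acta2 and above the 1.55 of Myh11 and the 1.61 of Actg2. The largest differences were 6.41 FPKM at Tagln and 5.73 at Myl9. Summed over the 7 muscle-restricted genes, the level was 10.2 FPKM in WT and 26.5 in Ern1-LKO, a ratio of 2.58. Summed over the 3 broad genes it was 35.6 and 48.8, a ratio of 1.37. The added level was 16.2 FPKM in the first class and 13.2 in the second, on WT sums of 10.2 and 35.6. No test of the difference between the classes was run, since the genes were fixed with earlier results known.

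Each contractile gene was then set beside relatives of its protein family that are not among the 10. The differences given are between log2 fold changes, with a 95% interval from both implied SEs. The actins Actb, Actg1 and Acta1 stood at ratios of 0.908, 1.02 and 1.14, and none was called. A further actin, Actc1, was too low to test, at 0.06 FPKM in WT and 0.15 in Ern1-LKO, a ratio of 2.55. Acta2 exceeded Actb by 2.42 (interval 1.85 to 2.99) and the skeletal actin Acta1 by 2.09 (1.51 to 2.67). Myh11 exceeded the non-muscle heavy chains Myh9, Myh10 and Myh14 by 2.46 (1.92 to 3.01), 2.27 (1.71 to 2.83) and 2.22 (1.66 to 2.79). In level, Myh11 came to 10.8% of Myh10 in WT and to 51.9% in Ern1-LKO, per length. Myl9 exceeded the non-muscle light chains Myl12a and Myl12b by 1.51 (0.93 to 2.09) and 1.47 (0.89 to 2.05). The intervals given for these families lay above 0. They treat the 2 genes of a pair as independent, though both were read from the same mice. The p-values of Acta2, Myh11 and Myl9 are 5e-05, the smallest in the authors' deposited table. Their implied SEs could therefore not be checked against p, and the intervals could be too narrow.

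In the other families the intervals held 0 or ran the other way. Tagln exceeded Tagln2 by 0.78 (interval -0.41 to 1.96), and Cnn1 exceeded Cnn3 by 3.22 with an interval from -4.74 to 11.2. Tpm1 lay 0.17 above Tpm3 (-0.30 to 0.64) and 0.09 above Tpm4 (-0.40 to 0.58). Tpm2, the tropomyosin abundant in smooth muscle, was at 2.53 and 3.45 FPKM with q = 0.436 in the authors' deposited table, and the difference Tpm1 minus Tpm2 was -0.17 (-0.71 to 0.38). Vim, the intermediate filament of mesenchymal cells, rose from 8.33 to 15.6 FPKM, and the difference Des minus Vim was -0.56 (-1.11 to -0.01). Lmod2 and Lmod3, leiomodins of striated muscle, were too low to test, at 0.17 and 0.08 FPKM in WT and 0.22 and 0.08 in Ern1-LKO.

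**Figure D3:**
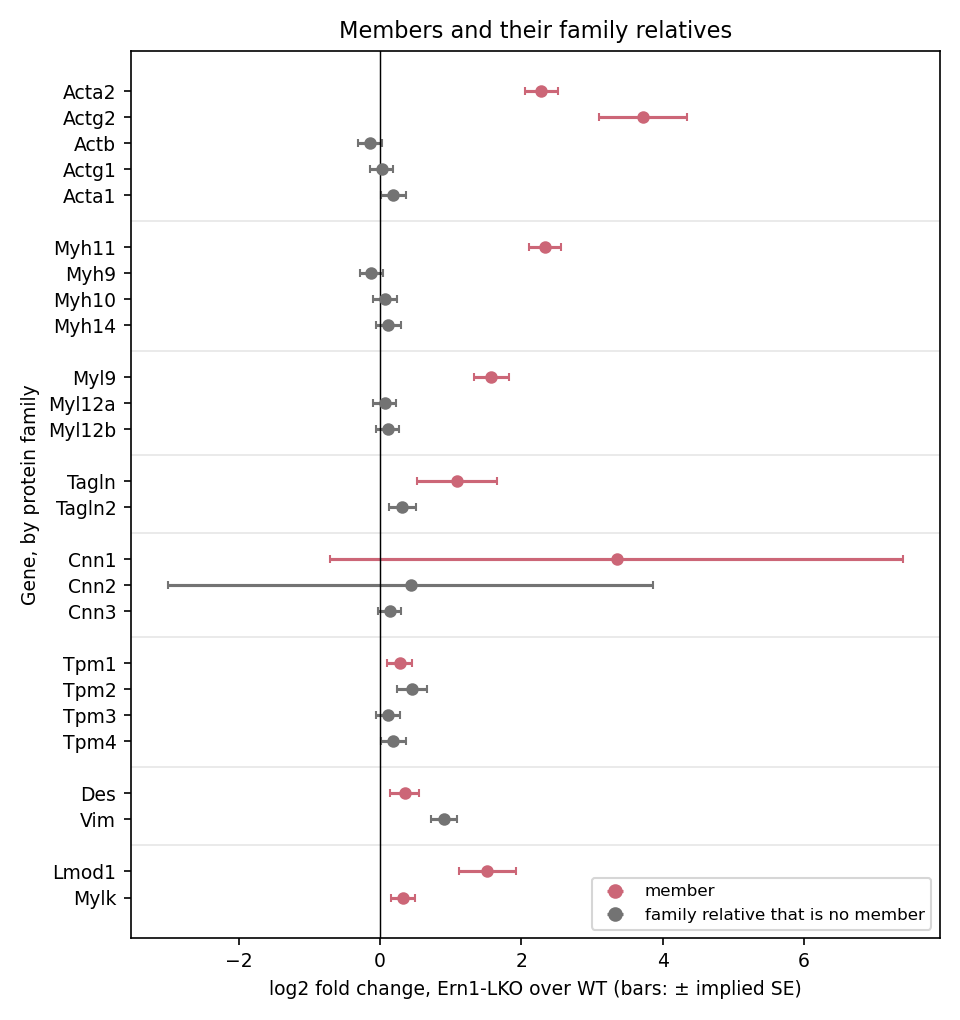
Log2 fold change of Ern1-LKO over WT for the 10 genes (red) and tested relatives of their families (grey), with bars of 1 implied SE either way. Acta2, Actg2, Myh11 and Myl9 stand apart from relatives near 0, whereas Tpm1 lies among its relatives, Des lies below Vim and the bar of Cnn1 crosses 0.

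Reads could be shared between near-identical genes or between genes that overlap. Of the distinct 50-base windows in GENCODE M21 transcripts of Acta2, 0.326% occurred exactly in transcripts of another gene, and none of the 1592 windows of Actg2 did. The share was 0.340% for Myh11, and 0% for Cnn1, Lmod1, Myl9 and Tpm1. It was 58.3% for Tagln, whose gene lies on the strand opposite to the antisense gene Gm48529 and the end of Pcsk7, 4.61% for Des, which overlaps the antisense gene Gm15179, and 4.56% for Mylk, which overlaps 3 antisense genes. The sources used here do not say whether strand was used in counting, so the values of Tagln, Des and Mylk could hold reads from those partners. Pcsk7 stood at 9.85 and 8.63 FPKM in WT and Ern1-LKO.

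The 10 genes lie on chromosomes 1, 2, 6, 9, 16 and 19, and the 4 that rose lie on 4 different chromosomes. Acta2 occupies chromosome 19 from 34240336 to 34255373, Actg2 chromosome 6 from 83512909 to 83536251, Myh11 chromosome 16 from 14194527 to 14291408, and Myl9 chromosome 2 from 156775464 to 156781657, on mm10. The nearest tested gene outside the table's span was examined on each side of each of the 10; loci merged into a span with one of the 10 were passed over. None of these 20 neighbours was called, none differed 2-fold or more, and their median log2 fold change was -0.03. Next to Actg2, for example, Dguok was at 10.7 and 10.8 FPKM and Stambp at 4.34 and 4.60.

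Other genes of smooth muscle, outside the 10, were mostly above WT. Of 26 listed, 19 were tested, 2 rose, none fell and 16 lay above WT; the median log2 fold change of the 19 was 0.50. At an unadjusted p under 0.05 in the authors' test, 8 of the 19 were higher and 1 was lower. That p was reached by 10.3% of all tested loci. Pdlim3, which anchors α-actinin at actin filaments, rose from 0.70 to 2.41 FPKM, with q = 0.00343 in the authors' deposited table. Pgm5, a component of adherens-type muscle junctions, rose from 0.35 to 0.65 FPKM, with q = 0.0325 in the authors' deposited table. The 7 listed genes too low to test, among them Kcnmb1, Synpo2 and Aoc3, all lay above WT. The most abundant were Cald1, the caldesmon of muscle and non-muscle cells, at 63.2 and 63.8 FPKM, and Ppp1r14a, an inhibitor of myosin phosphatase, at 11.8 and 18.5 (q = 0.189 in the authors' deposited table). The 7 tested genes under 1 FPKM in WT had a median log2 fold change of 0.80, and the 12 at or above it one of 0.37.

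Regulators of contraction and general actomyosin genes were counted next. Of 13 tested regulators of SRF and of contraction none was called by the authors' test, and the median log2 fold change was -0.02. Of these 13, 2 had an unadjusted p under 0.05, as did 10.3% of all tested loci. Srf itself stood at 5.21 and 4.43 FPKM, and the GTPase gene Rhoa at 97.5 and 98.0, while Myocd, the smooth muscle coactivator of SRF, was too low to test at 0.01 and 0.04. Of 28 non-muscle actomyosin genes 1 rose, none fell and 21 lay above WT; the list's median was 0.11 on the log2 scale. That gene was Flna, which encodes the actin crosslinker filamin A, at 3.77 and 6.17 FPKM with q = 0.00343 in the authors' deposited table. Pfn1, the actin monomer binder profilin, stood at 427 and 457 FPKM. Of 24 tested genes of striated muscle 1 rose, the cardiac troponin Tnnt2 from 0.35 to 2.07 FPKM, and 22 lay above WT; the list's median log2 fold change was 0.20. Acta1 and Tnnc2, the most abundant of these, were at 18.0 and 20.5 FPKM and at 18.0 and 18.7.

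**Figure D4:**
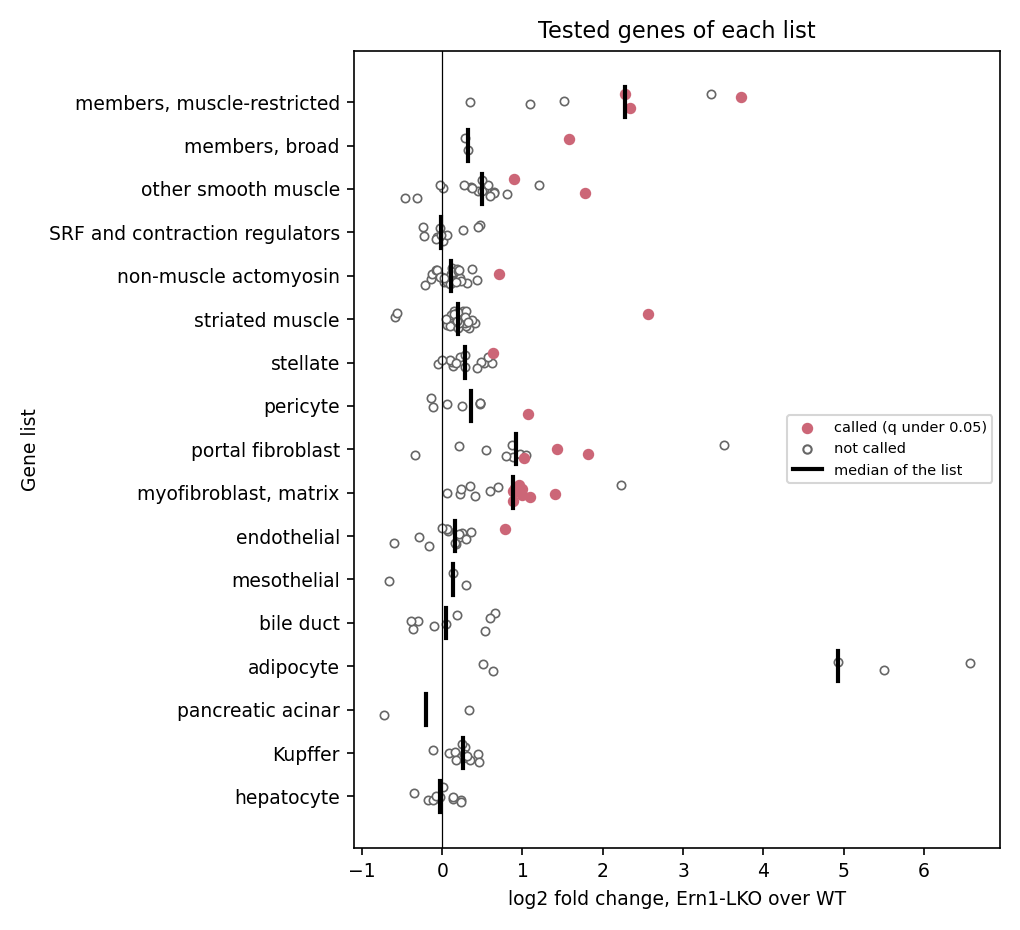
Log2 fold change of every tested gene with a finite value in the 17 gene lists, filled red where q lies under 0.05, with a black bar at each list's median; genes at 0 in a genotype, such as Retn and the 5 called acinar genes, have no finite value and are not drawn. The adipocyte list has the highest median, 4.93 over 5 genes of which none was called, the muscle-restricted genes have a median of 2.28, the portal fibroblast list 0.92 and the myofibroblast list 0.88, against -0.02 for regulators of SRF and contraction and -0.03 for hepatocyte genes.

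Markers of other liver cells that could carry contractile transcripts were read from the same table, and their part in the rise of the contractile genes was not tested. Of 17 tested matrix genes of myofibroblasts 9 rose and all 17 lay above WT. Col1a1, a chain of type I collagen, rose from 1.38 to 3.66 FPKM, as did the type III collagen gene Col3a1 from 4.62 to 9.18, while Fn1, which hepatocytes also make, stood at 229 and 238. The summed level of that list was 286 FPKM in WT and 325 in Ern1-LKO. Of 12 portal fibroblast genes 3 rose, Dpt from 2.93 to 7.91 FPKM, Fbln1 from 0.32 to 1.11 and Fbln2 from 0.40 to 0.82, 11 lay above WT and the sum was 25.4 and 42.2 FPKM. Of 8 pericyte genes 1 rose, Notch3 from 0.66 to 1.39 FPKM, and 6 lay above WT, with Rgs5 at 5.19 and 7.17 and a sum of 14.7 and 19.2; Higd1b was listed at 0 in WT. Of 15 stellate cell genes 1 rose and 13 lay above WT, with a sum of 158 and 197. Of that sum, 57.8 and 70.3 came from the locus of Ecm1, which also lists another gene name. The stellate genes Lrat and Ngfr stood at 2.26 and 2.47 and at 1.31 and 1.26 FPKM. At an unadjusted p under 0.05 in the authors' test, 13 of the 17 myofibroblast and 10 of the 12 portal fibroblast genes were higher. So were 4 of the 8 pericyte and 6 of the 15 stellate genes. None in these lists was lower at that p, which 10.3% of all tested loci reached in either direction.

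Markers of the remaining cell types gave the following values. The endothelial list had 1 rise among 15 tested genes, Vwf from 0.85 to 1.46 FPKM, with 11 above WT and a sum of 130 and 140. Mesothelial genes, with 3 tested, had no call and a sum of 2.33 and 2.51 FPKM, and bile duct genes, with 9 tested, had none. Of the bile duct genes 5 lay above WT and the list's median was 0.05 on the log2 scale. Their sum was 48.3 and 41.3 FPKM, most of it Spp1 at 37.2 and 30.3. The 13 Kupffer cell genes had no call, but 12 lay above WT and 2 had an unadjusted p under 0.05, as did 10.3% of all tested loci. Their median log2 fold change was 0.26 and their sum 429 and 462 FPKM. Of that sum, 163 and 150 came from the locus of Cd68, the only one of the 13 below WT. That locus also lists another gene name, so its value is not that of Cd68 alone. Adipocyte genes had 1 rise among 6 tested, Retn, which was listed at 0 in WT and reached 2.06 FPKM in Ern1-LKO. All 6 lay above WT. None of the other 5 was called, and their log2 fold changes had a median of 4.93. The implied SEs of Cfd (20.8) and Plin1 (4.99) were wide, though the p-value of Cfd corresponds to a narrower SE of 2.54. The sum was 19.5 and 39.6 FPKM, with Cfd alone at 0.17 and 7.66, and Lep and Cidea were also listed at 0 in WT. Of 9 pancreatic acinar genes 5 fell, among them Try4 from 0.74 FPKM, and 10 of the 12 were listed at 0 in Ern1-LKO. The albumin gene Alb is listed at 0 in both genotypes with the status HIDATA, so its 0 is not a measured level. The adipocyte and acinar genes listed at 0 in 1 genotype had another status, OK where tested and NOTEST where not. Depth is unknown, so their 0 need not mean absence either. The 11 tested hepatocyte genes had no call, with Ttr at 7027 and 6212 FPKM. Retn and the 5 called acinar genes thus differed between the genotypes alongside the contractile genes, and their part was not tested. The targeted gene Ern1, at 21.4 FPKM in WT and 30.2 in Ern1-LKO, was not lower but stood at a ratio of 1.41. The authors' deposited table lists p = 0.0084 and q = 0.172 for it. The table holds no value per exon, so the gene-level value of Ern1 does not check the genotype labels, and the cause of its level was not tested.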

How the data were processed

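Per the labels' protocols, liver total RNA was isolated with RNAiso and made into libraries with a NEBNext Ultra kit. Per the submitters' processing notes, the build was mm10 and the tools included Cufflinks 2.2.1, TopHat2 2.0.14, FastQC 0.11.3 and bcl2fastq; the sources used here do not give the gene annotation or the scaling between libraries. Per the file headers, the deposited table gives 1 FPKM value per genotype and locus, and the authors' log2 fold change, test statistic (a signed score), p-value and q-value. Of 25572 loci 13320 were tested; 1 further line held no values. Because the FPKM columns carry no value per library, no test across mice was run, and depth is unknown, so counting intervals and detection limits could not be given.

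The implied SE is the size of the log2 fold change multiplied by ln 2 and divided by the size of the statistic. Its z and that of the deposited p-value had a ratio of 1.02 at the median of 6224 loci with p between 0.0001 and 0.5 (0.998 to 1.09 from the 5th to the 95th percentile). Starts were raised by 1 to be 1-based. The 10 genes, the 17 lists and the family relatives were chosen with earlier results of these data known. All 10 genes are named. From each list, up to 4 called genes per direction and the 2 of highest mean FPKM were eligible to be named, with Ern1; other genes named are examples picked with their values in view. Some listed genes count in their lists and are not reported by name here. Software was Python 3.11.15 with pandas 2.3.3, numpy 2.4.6, matplotlib 3.10.9 and scipy 1.17.1. The code for the SE and for adjusting normal p-values was run on simulated data, at loci with an implied SE under 1. That simulation used the same SE formula, so it checks the code and not the SEs. The authors' q-values behind the calls were not tested.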

Additional observations from a re-analysis of the deposited data

How the results depend on the processing

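The count of 4 called contractile genes was 3 at q under 0.01 (without Actg2) and 3 with genes at a mean FPKM of at least 1. It was 4 with a 2-fold minimum, with adjustment over loci at 1 FPKM or more, and over loci with a span of their own. It was 5 with p-values from a normal approximation, with or without centring, which added Lmod1 (adjusted p 0.00834 and 0.00998). That approximation rests on the implied SE, which for Lmod1 is 0.41, narrower than the 0.49 that its deposited p-value corresponds to. The median log2 fold change of the muscle-restricted genes moved from 2.28 to 0.97 on the log2(FPKM + 1) scale, which understates changes of low genes. It was 1.68 with genes at a mean FPKM of at least 1 and 1.57 with Myl9 and Mylk counted among them. The 2 calls among other smooth muscle genes became 1 at q under 0.01, with adjustment over loci at 1 FPKM or more, at a mean FPKM of at least 1 and over loci with a span of their own; each of these was Pdlim3. No direction reversed in any alternative run, but this was fixed in advance, since all reused the same 1 value per genotype. Thresholds, adjustments and pseudocounts cannot change a sign, and centring subtracted a shift of only -0.02. No paired analysis was possible because the table holds a single value per genotype, and so no replicate could be left out. Settings added after seeing the data were the uncentred normal approximation and the restriction to loci with a span of their own.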

Other observations

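Loci that share a span held other large differences without a call. Of 19 such loci that were at least 2-fold higher in Ern1-LKO and at 1 FPKM or more there, 15 were not called. Aebp1, which encodes a matrix protein of smooth muscle cells and fibroblasts, was at 0.42 FPKM in WT and 1.04 in Ern1-LKO, and the authors' deposited table lists p = 0.0134 and q = 0.231 for it. Cfd, the adipocyte gene of complement factor D, lies in a span shared by 48 loci and was at 0.17 and 7.66 FPKM. The authors' deposited table lists p = 0.0301 and q = 0.366 for it. Its statistic implies an SE of 20.8, whereas its p-value corresponds to a narrower SE of 2.54, so the implied SE of Cfd is not reliable. Tbc1d8 was at 3.55 and 8.29 FPKM, with an implied SE of 0.57. They were picked with their values in view.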
